A study of Mus musculus with 4 samples.

Results

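Dense clusters of accessible regions were described in mouse bone marrow-derived macrophages, with the regions called in every library of the study as the starting point. Peaks of the 4 libraries were merged into 91858 union regions wherever they overlapped by at least 1 bp, and 53062 of these regions were called in all 4 libraries. Shared regions on the same chromosome were stitched together where the gap between them was 12500 bp or less. The 4833 shared regions that fell in stitched clusters of 8 or more regions are the members described here. They make up 9.11% of the shared regions and 5.26% of the union regions, and they form 470 clusters. The members were selected on the peak calls themselves (position and presence in all 4 lists), so the number of clusters and their density are descriptions and carry no test.

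Open DNA was measured by ATAC-seq, where a transposase cuts accessible chromatin and attaches adapters. The knockout (KO) libraries came from Ezh2fl/fl;LysM-Cre+/- mice, in which Cre is driven from the LysM (Lyz2) locus in myeloid cells, and the wild-type (WT) libraries came from littermate controls whose alleles the labels do not give. Marrow was grown for 7 to 10 days with 20% L929 cell conditioned medium, which supplies macrophage growth factor, and both genotypes were then kept for 24 hours in medium conditioned by Hepa1-6, a mouse hepatoma line. No library without that medium was analysed here, so nothing below measures an effect of the medium. Each genotype had 2 libraries, and the labels do not say whether they came from separate mice or cultures, so every spread given is the spread between these libraries.

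Stitching neighbouring accessible or acetylated regions across gaps of this size is the usual way to outline super-enhancers, the long arrays of enhancers found near genes that define a cell type. In macrophages such arrays are known near genes for lineage transcription factors, Fc receptors, chemokines and lysosomal enzymes, and PU.1 (encoded by Spi1) and C/EBP factors bind many of them. Ezh2 is the methyltransferase of Polycomb repressive complex 2, which places methyl groups on lysine 27 of histone H3 at silent developmental genes. The calls used here measure open DNA alone, with no histone mark, so the clusters are called dense clusters and not super-enhancers.

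Promoters of lead genes are shown as examples of sequence in the clusters, although most members lie away from promoters. Each sequence below is the RefSeq window of GRCm38.p6, the assembly behind mm10, from 250 bases before to 50 after the start of the gene, 5′ to 3′ on the strand of the gene, and 8 of them are printed. Of the lead genes of the 20 largest clusters, the first 6 with a usable window were taken, and Cebpa and Tnf were added after their values were seen, because they are macrophage genes in the same kind of cluster. A lead gene is the protein-coding gene whose span overlaps the most member regions of its cluster. Capitals mark matches to any of 8 motifs searched on both strands: PU.1 GAGGAAGT, AP-1 TGANTCA, C/EBP TTGCNNAA, E-box CACGTG, CRE TGACGTCA, GC box GGGCGG, ISRE as 2 copies of GAAA with 2 free bases between them, and NF-kB as GGG and TTTCC with 2 free bases between them. The windows lie at chr5:15577043-15577342 (+ strand) for Gm21083, chr5:14938426-14938725 (- strand) for Speer4e, chr8:70539425-70539724 (+) for Ell, chr9:106280811-106281110 (+) for Poc1a, chr8:126945872-126946171 (-) for Tomm20, chr17:35235737-35236036 (-) for Nfkbil1, chr7:35119043-35119342 (+) for Cebpa and chr17:35201958-35202257 (-) for Tnf.
Gm21083: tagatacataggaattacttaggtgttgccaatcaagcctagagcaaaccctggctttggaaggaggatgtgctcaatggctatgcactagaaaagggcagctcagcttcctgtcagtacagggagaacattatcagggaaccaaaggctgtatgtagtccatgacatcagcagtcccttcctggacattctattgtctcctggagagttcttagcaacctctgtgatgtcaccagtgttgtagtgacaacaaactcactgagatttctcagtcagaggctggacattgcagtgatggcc
Speer4e: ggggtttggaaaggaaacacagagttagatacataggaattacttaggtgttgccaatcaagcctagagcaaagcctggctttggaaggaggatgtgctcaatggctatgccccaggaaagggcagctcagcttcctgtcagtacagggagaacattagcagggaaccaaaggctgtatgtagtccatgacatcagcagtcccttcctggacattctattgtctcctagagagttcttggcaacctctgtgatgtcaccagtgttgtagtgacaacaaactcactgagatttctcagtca
Ell: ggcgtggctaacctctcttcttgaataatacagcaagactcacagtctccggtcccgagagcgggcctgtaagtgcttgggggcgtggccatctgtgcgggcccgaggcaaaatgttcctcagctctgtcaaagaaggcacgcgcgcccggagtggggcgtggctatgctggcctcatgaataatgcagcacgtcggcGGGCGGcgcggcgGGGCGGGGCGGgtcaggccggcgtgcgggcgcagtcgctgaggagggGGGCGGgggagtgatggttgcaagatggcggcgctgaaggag
Poc1a: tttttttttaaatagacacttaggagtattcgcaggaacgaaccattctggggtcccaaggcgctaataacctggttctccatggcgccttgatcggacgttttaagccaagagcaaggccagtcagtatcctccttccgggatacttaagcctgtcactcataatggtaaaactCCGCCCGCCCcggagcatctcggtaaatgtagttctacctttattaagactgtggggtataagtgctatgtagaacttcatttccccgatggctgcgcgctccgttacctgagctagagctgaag
Tomm20: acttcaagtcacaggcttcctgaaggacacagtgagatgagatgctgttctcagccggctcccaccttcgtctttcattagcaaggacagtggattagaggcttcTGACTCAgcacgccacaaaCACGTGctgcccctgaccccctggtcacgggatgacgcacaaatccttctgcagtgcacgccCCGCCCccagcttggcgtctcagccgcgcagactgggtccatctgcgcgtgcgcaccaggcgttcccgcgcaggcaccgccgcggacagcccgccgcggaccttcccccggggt
Nfkbil1: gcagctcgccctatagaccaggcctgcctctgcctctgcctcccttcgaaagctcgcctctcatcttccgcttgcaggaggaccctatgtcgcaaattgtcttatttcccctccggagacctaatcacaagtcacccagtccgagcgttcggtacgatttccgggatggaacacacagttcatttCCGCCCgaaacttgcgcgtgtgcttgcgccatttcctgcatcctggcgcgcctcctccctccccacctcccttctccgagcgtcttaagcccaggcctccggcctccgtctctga
Cebpa: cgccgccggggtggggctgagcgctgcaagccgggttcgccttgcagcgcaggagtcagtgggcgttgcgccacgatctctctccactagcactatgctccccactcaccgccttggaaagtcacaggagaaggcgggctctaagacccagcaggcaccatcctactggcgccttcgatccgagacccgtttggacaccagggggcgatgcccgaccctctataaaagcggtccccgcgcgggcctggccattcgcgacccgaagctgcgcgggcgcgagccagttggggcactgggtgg
Tnf: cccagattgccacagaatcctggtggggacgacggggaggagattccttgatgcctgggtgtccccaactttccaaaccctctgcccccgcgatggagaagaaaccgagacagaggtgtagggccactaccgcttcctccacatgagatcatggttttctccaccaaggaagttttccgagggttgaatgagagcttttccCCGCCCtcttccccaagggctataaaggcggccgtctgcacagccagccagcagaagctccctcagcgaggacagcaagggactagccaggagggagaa

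The Gm21083 and Speer4e windows are shown to compare the lead genes of the 2 largest clusters. No member region overlapped the Speer4e window, while the other 7 windows each overlapped 1. At their best ungapped offset they matched at 268 of 275 bases (97.5%), and neither held a CpG. The other 6 windows held between 11 and 29 CpGs, the fewest in Tnf and the most in Ell and Cebpa. The window of Fcgr1, examined in the same way and not printed, held 1 CpG and no motif match. Ell, which encodes an elongation factor of RNA polymerase II, had 4 GC box matches, Poc1a had 2, and Nfkbil1 and Tnf had 1 each. Tomm20, for a receptor of the mitochondrial import machinery, had 1 AP-1, 1 E-box and 1 GC box match. Cebpa, the gene of a factor needed for myeloid differentiation, had none of the 8 motifs in its window. No match says only that these letters are not in this window.

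Over the whole set, 845 promoter windows of 726 genes overlapped a member region, against 9890 windows that overlapped another shared region and 21238 windows in the table. The GC box was found in 63.3% of the member windows, 67.8% of the other shared windows and 46.2% of all windows. The PU.1 letters were in 4.50%, 3.37% and 3.13% of these sets, and the C/EBP letters in 9.35%, 7.79% and 10.2%. AP-1 letters were in 5.33%, 4.38% and 6.99%, and NF-kB letters in 2.01%, 1.68% and 1.61%. ISRE letters were in 3.20%, 3.13% and 3.34%, E-box letters in 9.82%, 10.7% and 7.84%, and CRE letters in 2.72%, 3.61% and 2.24%. For every motif but PU.1 and NF-kB, the share of member windows thus lay between those of all windows and of other shared windows. For PU.1 and NF-kB it was the highest of the sets, on 38 and 17 member windows. Median GC content was 60.7% in member windows, 61.7% in other shared windows and 56.3% in all windows. The differences in motif shares between member and other shared windows were not tested.

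The dense clusters ranged from 8 to 41 regions, with a median of 9, and 248 of the 470 held 8 or 9 regions. Another 109 held 12 or more, and 8 held 20 or more. Their spans ran from 19415 to 142786 bp, with a median of 51135 bp and a sum of 25.9 Mb. Union regions of the members covered 4.99% to 33.3% of a span, with a median of 10.8%, so even a dense cluster was mostly sequence between peaks. The gap from one member to the next had a median of 4881 bp over 4363 gaps. Just outside the threshold lay 247 clusters of 7 regions, with a median span of 36.2 kb and a median of 3204 covered bp. The 163 clusters of 8 regions, just inside it, had a median span of 43.9 kb and 3688 covered bp.

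**Figure D1:**
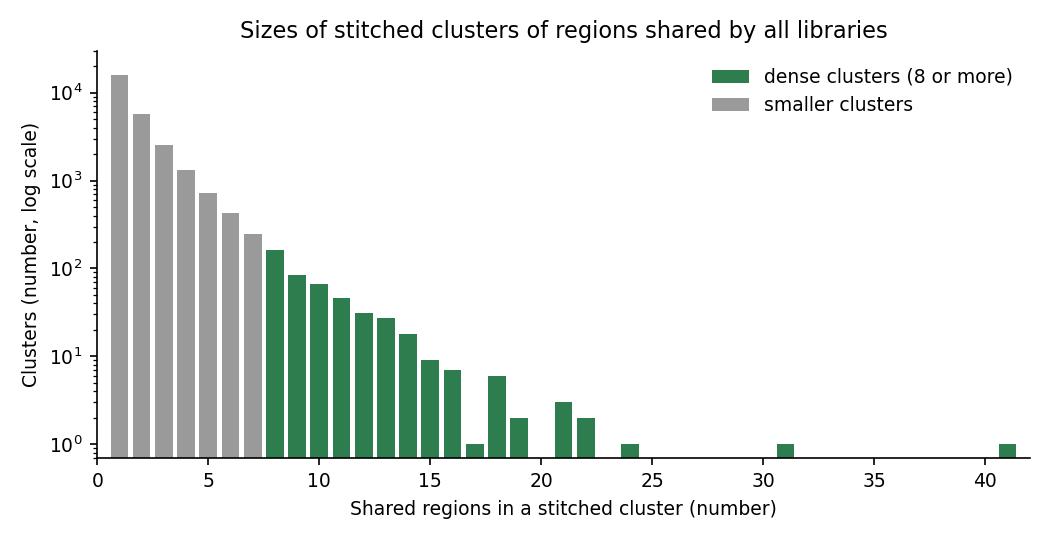
Number of stitched clusters (vertical axis, log scale) by the number of shared regions they hold (horizontal axis), with the 470 dense clusters of 8 or more in green and smaller clusters in grey. Counts fall from 15820 single regions to 163 clusters of 8 and 1 cluster of 41, with no break in the counts at the threshold.

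Single member regions looked much like the other shared regions in size and position. Median width was 516 bp for members and 512 bp for the 48229 other shared regions. Members lay within 1 kb of the end of a protein-coding gene in 22.1% of cases and other shared regions in 22.3%, and 63.3% and 62.6% overlapped a gene span. A promoter window was overlapped by 712 of the 4694 members on chromosomes of the promoter table (15.2%), by 17.1% of the other shared regions, and by 18.8% of shared regions with no shared neighbour within the gap. The share of shared regions that were members differed more between chromosomes. It was 17.8% on the Y chromosome, on only 8 members, 13.9% on chromosome 19 and 13.2% on chromosome 7. At the low end it was 5.05% on chromosome 16 and 1.95% on the X chromosome, on 20 members.

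The clusters differed in how many genes they involved. Members touched no protein-coding gene in 26 clusters, 1 gene in 178, 2 to 4 genes in 200 and 5 or more in 66. In 190 clusters at least 50% of the regions lay in the lead gene, and in 69 clusters every region did. In all, 1138 of 21887 protein-coding genes (5.2%) overlapped a member region. Those genes had a median length of 13.6 kb, against 17.2 kb for all protein-coding genes.

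Cytokines and chemokines draw in and activate other immune cells. Of 32 listed genes for them, 8 overlapped members, in clusters of rank 3, 7, 149 and 304 by number of regions. The cluster of 24 regions led by Ccl4 (chr11:83533294-83676079) also touched Ccl3, Ccl6 and Ccl9, which encode further CC chemokines. Its members covered 12077 and 11668 bp in the WT libraries and 13676 and 12664 bp in the KO libraries. Both KO values were above both WT values, a ratio of 1.11. For a design of this size the lowest two-sided exact permutation p is 0.333, so no single cluster can pass a test. A second chemokine cluster, of 11 regions at Ccl2 and Ccl7, covered 4428 and 4265 bp in WT and 4176 and 4463 bp in KO, and the genotypes overlapped. The cluster of 21 regions led by Nfkbil1 touched Tnf and Ltb, genes of inflammatory cytokines, Aif1, a macrophage marker, and the class I histocompatibility gene H2-D1. It covered 11732 and 10223 bp in WT and 10458 and 11156 bp in KO, which overlapped. Il10, for an anti-inflammatory cytokine, lay in a cluster of 9 regions led by Mapkapk2, a kinase gene, with 2607 and 2471 bp in WT and 2813 and 2770 bp in KO. There the KO values were both higher.

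**Figure D2:**
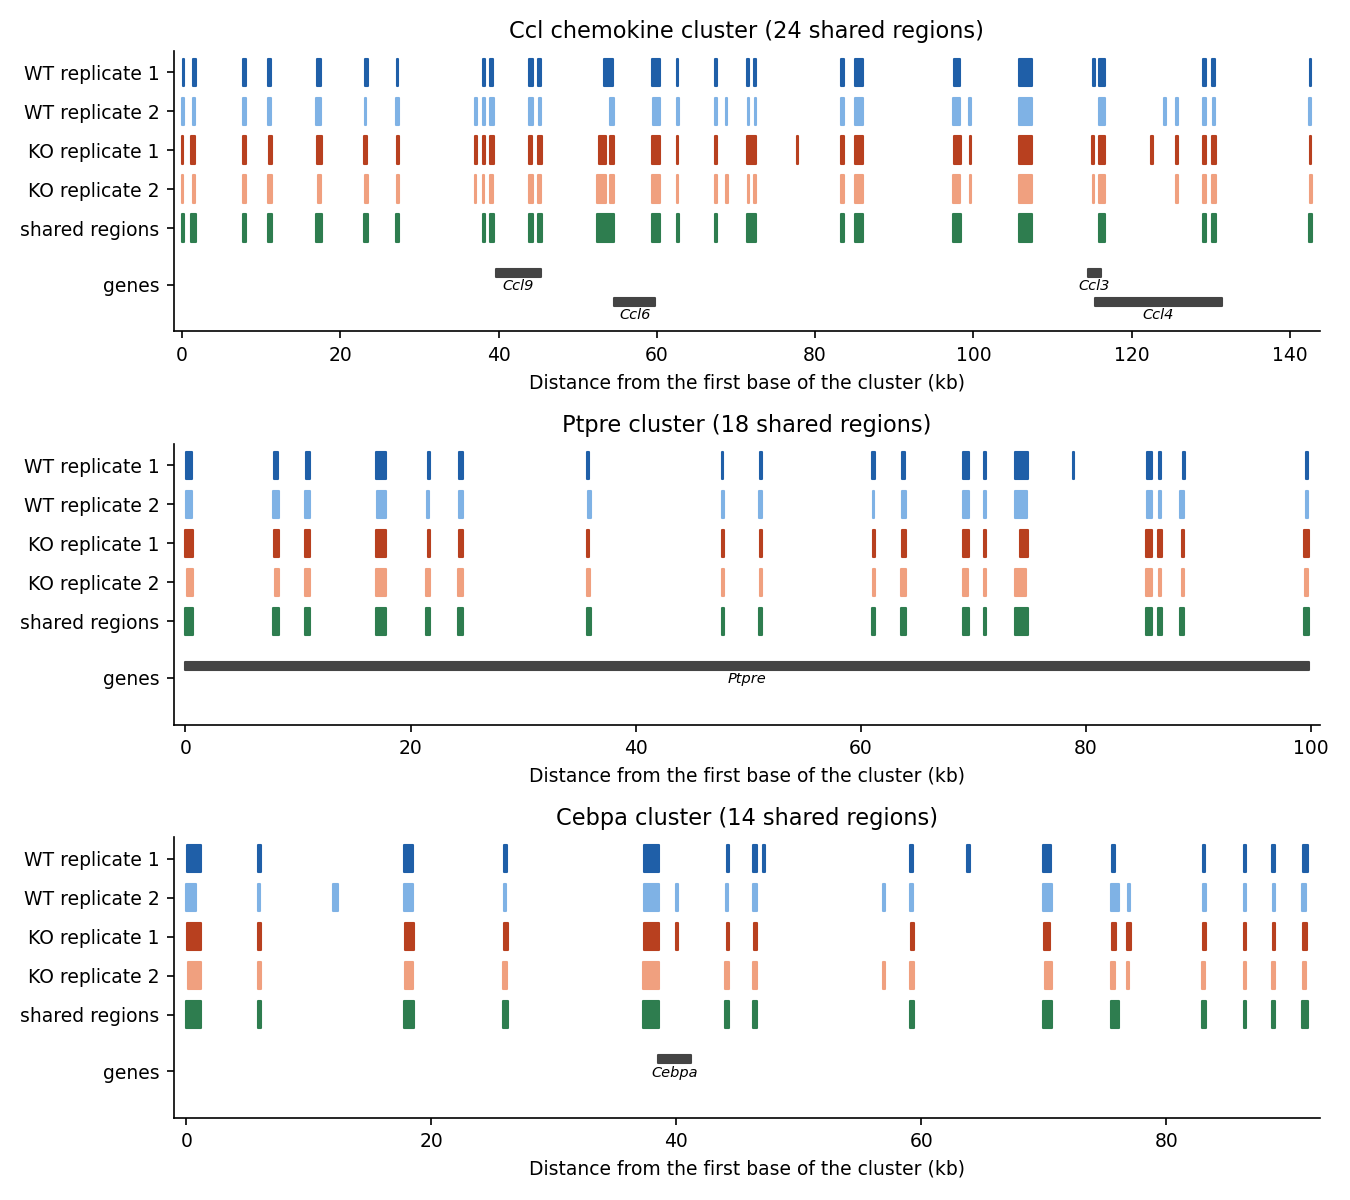
Peaks of each library (blue for WT, red to orange for KO), shared regions (green) and protein-coding genes (grey) along 3 clusters, with distance from the first base of the cluster in kb on the horizontal axis. The 24 regions of the chemokine cluster lie in, between and on both sides of 4 Ccl genes, the 18 of Ptpre lie inside that gene, and of the 14 around Cebpa 1 overlaps the gene.

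The Fc receptor genes Fcgr1, Fcgr2b, Fcgr3 and Fcgr4, whose products bind antibody-coated particles, were spread over 3 clusters. The Fcgr1 cluster, of 16 regions, also touched 10 histone genes and covered 10420 and 10396 bp in WT and 10780 and 10599 bp in KO. Its KO values were both higher, by a ratio of 1.03. Fcgr2b, the inhibitory receptor, and Fcgr4 shared a cluster of 13 regions with 6453 and 6324 bp in WT and 6133 and 5993 bp in KO, where WT was higher. Their neighbour Fcgr3 had a cluster of 11 regions, with 5887 and 6602 bp in WT and 6772 and 6471 bp in KO, which overlapped. These 3 clusters therefore did not share a direction. Lyn, a Src family kinase that acts downstream of such receptors, held all 12 regions of its cluster, with 5278 and 5321 bp in WT and 4570 and 5568 bp in KO. Csf1r, the receptor for the growth factor in L929 medium, had 5 of the 14 regions of a cluster that Pdgfrb shared. That cluster covered 6609 and 6855 bp in WT and 6997 and 7155 bp in KO, so the KO values were higher by a ratio of 1.05.

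Genes of macrophage transcription factors led smaller clusters. Spi1 overlapped 7 of the 9 regions of its cluster (chr2:91070065-91112947), which covered 3964 and 3256 bp in WT and 4548 and 4198 bp in KO. The KO values lay above the WT values, with a log2 ratio of 0.28, one of the 6 largest among clusters whose genotypes did not overlap. The cluster of 14 regions at Cebpa (chr7:35080772-35172301) covered 6100 and 6163 bp in WT and 5945 and 6157 bp in KO, which overlapped. Cebpb, for a related factor induced in activated macrophages, had a cluster of 8 regions with 3150 and 3180 bp in WT and 2892 and 4227 bp in KO. A further 9 regions formed a gene-free cluster 50224 bp from Cebpb, with 4682 and 4262 bp in WT and 4449 and 5077 bp in KO. In both clusters near Cebpb the genotypes overlapped.

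Genes of antigen presentation lay in the H2-DMa, Rgl2 and Ndst1 clusters, which were picked after their genes were seen. H2-DMa led a cluster of 16 regions that also touched Psmb8, Psmb9, Tap1 and Tap2, which make and transport peptides for histocompatibility molecules. It covered 8862 and 8587 bp in WT and 9959 and 9565 bp in KO, with KO higher by a ratio of 1.12. The Rgl2 cluster, of 18 regions, touched H2-K1 and Tapbp, the gene of the tapasin chaperone, and covered 10949 and 10403 bp in WT and 10361 and 11679 bp in KO, which overlapped. The Ndst1 cluster of 19 regions held Cd74, the invariant chain gene, with 6978 and 8352 bp in WT and 7564 and 8476 bp in KO. In the Hfe cluster, 18 regions touched Hfe, a regulator of iron uptake, and 9 histone genes, with 7820 and 7026 bp in WT and 6964 and 7295 bp in KO. The genotypes overlapped in both.

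The other large clusters mixed broadly expressed genes with immune genes. The Ell cluster of 22 regions covered 12389 and 13203 bp in WT and 12851 and 12758 bp in KO. The Poc1a cluster, also of 22 regions, held Tlr9, a sensor of unmethylated DNA, and was wider in WT, with 11154 and 10588 bp against 10458 and 10171 bp. Tomm20 had 21 regions with 11902 and 12221 bp in WT and 12368 and 12589 bp in KO, where KO was higher. Hyal1, Akt1 and Mast1 led clusters of 21, 18 and 17 regions that overlapped between genotypes. The Mast1 cluster included Junb, a subunit of AP-1. Sema4a, with the lamin gene Lmna in its cluster, and Gramd1a had 18 regions each and were both wider in WT, at log2 ratios of -0.12 and -0.04. Slc29a1, for a nucleoside transporter, had 16 regions in a cluster that also held Nfkbie, an inhibitor of NF-kB. It covered 8554 and 8702 bp in WT and 9401 and 10317 bp in KO, a ratio of 1.14. Among the 20 largest clusters, 5 lead genes had wider KO values: Speer4e, Ccl4, Tomm20, Fcgr1 and Slc29a1. The 3 wider in WT were led by Poc1a, Sema4a and Gramd1a. Over all stitched clusters of 2 or more, 15.8% were wider in KO and 16.9% in WT. The 20 clusters are too few to set apart from these shares.

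**Figure D3:**
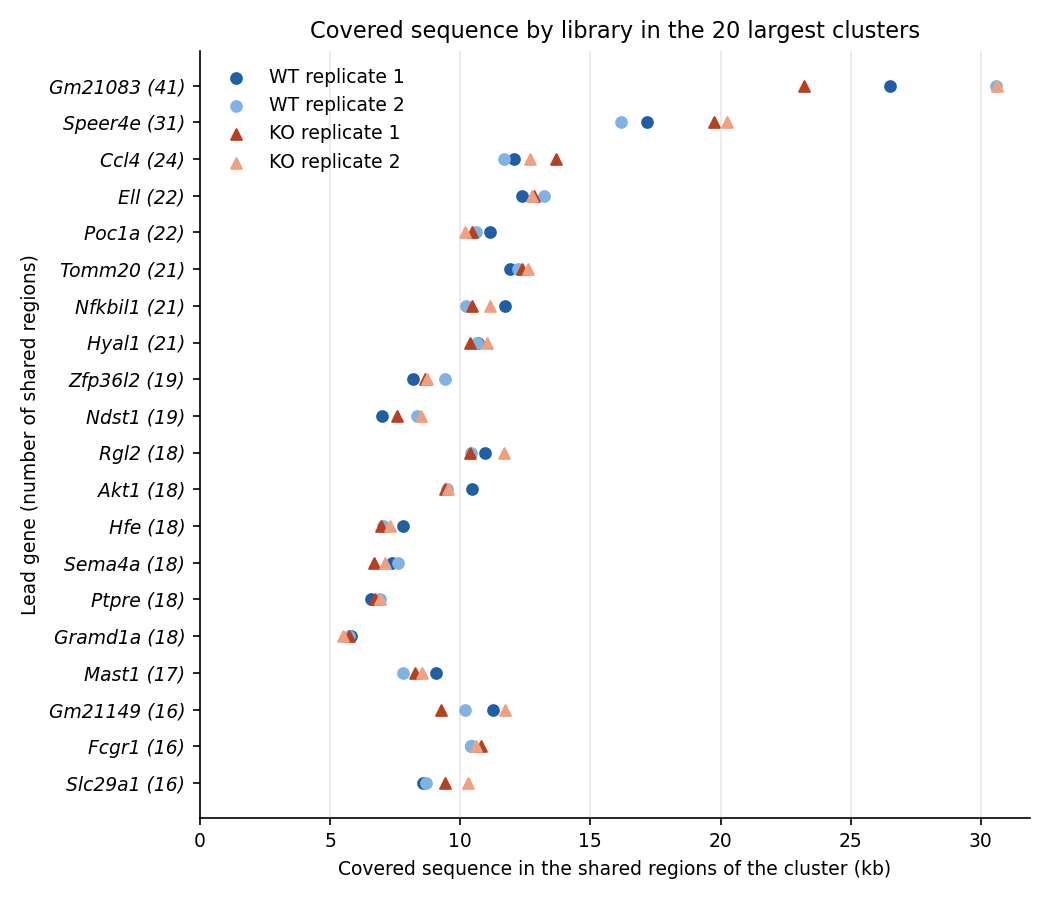
Covered sequence in kb (horizontal axis) in the member regions of each of the 20 largest clusters, 1 point per library, with circles for WT and triangles for KO. The genotypes overlap in 12 of the 20 clusters. The separation of Speer4e, at 17166 and 16168 bp in WT and 19768 and 20236 bp in KO, is the widest in bp. The Speer4e values are uncertain, because reads from near-identical copies can align to several places.

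Some clusters belonged to a single long gene. All 18 regions of the Ptpre cluster lay inside Ptpre, which encodes a receptor-type tyrosine phosphatase, and they covered 6570 and 6911 bp in WT and 6716 and 6932 bp in KO. The gene with most members was Sgms1, a sphingomyelin synthase gene, with 21 regions in clusters of 12 and 9. Snx29 had 17 member regions, Lims1, for an adaptor at integrin adhesions, 16, and Ubash3b 15. Among the genes with most member regions, the order relative to gene length was different. Tspan14 had 2.14 member regions per 10 kb, Pstpip1 1.98 and Irak2, a kinase of Toll-like receptor signalling, 1.94, while Ptpre had 1.21 and Snx29 0.390. Genes with fewer members were not ranked in this way. The widest member region was at Kdm6b, which encodes a demethylase that removes the mark Ezh2 places. It spanned 3373 bp (chr11:69408558-69411930), and 2947 and 3292 bp were covered in WT and 2895 and 3320 bp in KO. Ezh2 itself overlapped 3 shared regions, each with no shared neighbour within the gap, and so had no dense cluster.

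The largest gene-free cluster held 19 regions 26851 bp from Zfp36l2, the gene of an RNA-binding protein that destabilises messages. It covered 8190 and 9420 bp in WT and 8631 and 8742 bp in KO. Others lay nearest Nenf, with 14 regions, Tpra1, with 13, and Id2, an inhibitor of helix-loop-helix factors, with 12 regions 61137 bp away. Eed, a core subunit of Polycomb repressive complex 2, was the nearest gene to a cluster of 9 regions 38639 bp away, with 4161 and 4898 bp in WT and 4681 and 4250 bp in KO. Of these, the cluster nearest Nenf was wider in WT, with 8354 and 8500 bp against 8149 and 8085 bp. In the others the genotypes overlapped. Nearness here is a position and does not show which gene a region acts on.

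Each peak carries the authors' fold value, its enrichment over background, and a percentile of fold was taken within each list, where 100 is the strongest. The 2 largest clusters stood at the bottom of that scale. The median member of the Gm21083 cluster was at percentile 2.43 and 1.90 in the WT lists and 2.04 and 1.97 in the KO lists, and that of Speer4e lay between 1.73 and 4.38. Gm21149, Gm17019, Sfi1 and Gm21119 led the other 4 clusters whose median member was below percentile 5 in every list. Of these 6 clusters, 4 lie in chr5:14900035-15714611, among predicted genes and Speer genes such as the near-identical pair printed above. Reads from such copies can align to more than one place, and their treatment was not given in the sources used here, so the values of these clusters are uncertain. Their members covered 19.2% to 33.3% of the spans, against the median of 10.8% over all clusters.

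At the other end stood the cluster of 8 regions led by Ctsh, a lysosomal cysteine protease gene, whose median member was at percentile 90.1 and 87.3 in WT and 89.2 and 88.2 in KO. Pira2, of the paired immunoglobulin-like receptors, and Xylb followed, at 82.5 to 88.1 and 79.8 to 86.1. None of the 6 clusters with the highest percentiles held more than 9 regions, and 248 of all 470 dense clusters held 8 or 9.

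Member regions as a group had lower fold than other shared regions in all 4 lists. The median member was at percentile 51.4 and 53.7 in WT and 52.4 and 53.0 in KO, and the median of other shared regions was at 61.6 and 63.5 in WT, with 60.5 and 62.8 in KO. This difference averaged -9.48 percentile points and had the same sign in 4 of 4 lists, with a two-sided exact sign-flip permutation p of 0.125, the smallest that 4 libraries allow. It was -11.5 points among regions over a promoter window and -8.32 points among regions over none. Medians went down step by step with cluster size. In WT replicate 1 they were 66.1 for single regions, 61.0 for clusters of 2 to 3, 56.8 for 4 to 7, 52.5 for 8 to 11 and 48.7 for 12 or more. Percentile 90 or higher in each list was reached by 8.21% to 8.98% of the members and by 13.0% to 14.2% of the other shared regions.

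**Figure D4:**
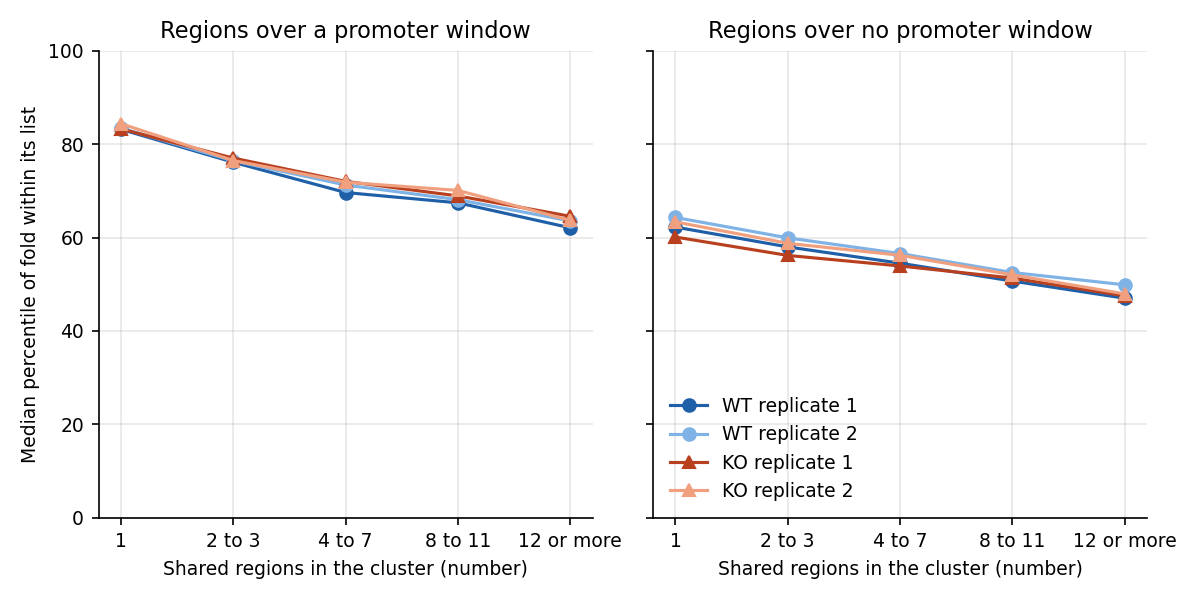
Median percentile of the authors' fold within each list (vertical axis) by the number of shared regions in the cluster (horizontal axis), for regions over a promoter window (left) and over none (right), 1 line per library. In every library the medians go down with cluster size, from 83.2 to 62.1 in WT replicate 1 over promoter windows and from 62.2 to 47.0 over none.

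The covered sequence of the members did not separate the genotypes. Member regions covered 2281 and 2337 kb in WT and 2268 and 2400 kb in KO. The KO pair therefore held both the lowest and the highest value. Means were 2309 ± 39.4 kb (SD, n = 2) and 2334 ± 93.6 kb (SD, n = 2), a ratio of 1.01, with a two-sided exact permutation p of 1. The ratio was 0.995 for other shared regions. The sign of the member ratio turned without WT replicate 1, at a log2 of -0.01, and without KO replicate 2, at -0.03. Members made up 8.24% and 7.84% of all covered sequence in WT and 8.50% and 8.03% in KO. That difference of 0.229 percentage points was smaller than the spread within each genotype, with a two-sided exact permutation p of 0.667. Replicate 1 had the higher share in both genotypes.

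Counted one by one, 912 member regions (18.9%) were wider in KO, meaning that both KO libraries covered more bases than both WT libraries, and 745 (15.4%) were wider in WT. Over all shared regions the shares were 16.2% wider in KO and 16.9% wider in WT. Among whole clusters, 87 (18.5%) were wider in KO and 68 (14.5%) in WT, against 15.8% and 16.9% of all 11503 stitched clusters of 2 or more. Which genotype had more wider clusters depended on single libraries. Without KO replicate 2, 149 clusters (28.7%) were wider in KO and 229 (44.0%) in WT, against 24.5% and 43.3% of all stitched clusters of 2 or more under the same rule. Without WT replicate 1 the counts were 155 (28.7%) and 187 (34.6%), against 27.7% and 37.1%. Without WT replicate 2 they were 214 (41.6%) and 120 (23.3%), against 35.5% and 29.2%, and without KO replicate 1 they were 253 (47.2%) and 110 (20.5%), against 41.3% and 25.9%. All stitched clusters leaned to the same genotype as the dense clusters in each of these 4 comparisons. The log2 ratios of KO to WT over the 470 clusters had a median of 0.01 and an SD of 0.116. Between the 2 WT libraries the log2 ratios had an SD of 0.161 and between the 2 KO libraries 0.154, from which replicate differences alone would give an SD of 0.112 for the genotype ratio. The spread of genotype ratios over clusters was thus close to that of replicates.

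The clusters with the largest ratios held 8 to 12 regions. Scimp, the gene of an adaptor of Toll-like receptor signalling, led a cluster of 8 regions with 2654 and 2362 bp in WT and 3563 and 2942 bp in KO, a log2 ratio of 0.37. Pacsin2, for a membrane-bending protein, had 12 regions with 4581 and 4325 bp in WT and 5545 and 5817 bp in KO, a log2 ratio of 0.35. Pip4k2a, Klf16 and Fyb, an adaptor gene of integrin signalling, followed at 0.31, 0.29 and 0.28. In the other direction Myo5a, for an actin-based motor, had 9 regions with 4496 and 4500 bp in WT and 3605 and 3317 bp in KO, a log2 ratio of -0.38. Rnf216, H13, Nabp1, Akna and Cdca7l followed, from -0.25 to -0.22. These clusters were picked for their ratios, so the values are descriptions.

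Single regions moved further than clusters did. A region of 581 bp at Capn11 in the Slc29a1 cluster covered 143 and 153 bp in WT and 575 and 522 bp in KO, a ratio of 3.70. A region of 650 bp in Myo5a covered 565 and 606 bp in WT and 174 and 231 bp in KO, a ratio of 0.343. The region over the promoter window of Cd38, which encodes an enzyme that consumes NAD, covered 564 and 581 bp in WT and 268 and 136 bp in KO. Regions in the clusters led by Sema4b, Pacsin2 and Dram1 were the others with the largest KO ratios. Regions in the Gm17019 and Gm3435 clusters were the others with the smallest, with 1 Gm17019 region among the largest. Some of these were very weak: the Gm3435 region lay at fold percentiles of 0.68 to 1.67, and 1 Gm17019 region wider in WT at 0.23 to 1.25. In these 10 regions the width of a call, not the presence of a peak, differed, since a peak was called in all 4 libraries. Fold did not always follow width: at the Myo5a region the authors' fold was 4.76 and 4.18 in WT but 5.93 and 4.99 in KO.

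Between the members of a cluster lay regions that not every library called, which the rule did not use. The spans held 5697 union regions, of which 864 were not called in all 4 libraries. There were 34 KO-only regions, with peaks in the full KO pair and none in WT, and 30 WT-only regions with the reverse. These are 0.597% and 0.527% of the union regions in the spans, against 1.47% and 2.03% over all union regions. Because the spans were chosen for shared regions, the fairer base is the regions not called in all 4. On that base KO-only regions were 3.94% in spans and 3.47% elsewhere, and WT-only regions 3.47% in spans and 4.84% elsewhere. Regions called in exactly 1 library of each genotype numbered 156 in the spans. The KO-only regions had a median width of 186.5 bp and the WT-only regions 195 bp. The median of the lower fold percentile in the calling libraries was 2.27 and 4.38. The strongest were a KO-only region of 132 bp in the Acer3 cluster and a WT-only region of 139 bp in the Tbc1d22a cluster, at percentiles of 53.9 and 49.8. Acer3 encodes an alkaline ceramidase.

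Lists of genes by function were set against the 5.2% of all protein-coding genes that overlapped a member. The lists were chosen with earlier results of these data known, and genes of 1 cluster count separately, so the counts are descriptions. Among genes of macrophage surface proteins and phagocytosis, 10 of 25 overlapped a member (40%): Csf1r, Itgam, Itgb2, Cd14, Cd68, Fcgr1, Fcgr2b, Fcgr3, Fcgr4 and Lyn. Among cytokine and chemokine genes it was 8 of 32. For macrophage transcription factors it was 5 of 30, adding Rara and Stat6 to Spi1, Cebpa and Cebpb, and for AP-1, NF-kB and immediate early factors 5 of 28, Fosb, Junb, Batf3, Rela and Nr4a1. Alternative (M2) activation genes gave 4 of 20, Clec10a, Pdcd1lg2, Tgm2 and Kdm6b, and inflammatory (M1) genes 3 of 20, Socs3, Tlr9 and Nlrp3.

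Broadly expressed genes were present too. Ribosomal protein genes overlapped a member in 7 of 32 cases (21.9%), a higher share than that of macrophage transcription factors (16.7%). Among genes with any shared region the background was 8.04%. On that base 41.7% of the surface list, 30.8% of the cytokine list and 21.9% of the ribosomal list overlapped a member. Macrophage transcription factors reached 17.2%. Osteoclast, erythroid, neutrophil, fibroblast and T and NK marker lists reached 66.7%, 33.3%, 25%, 25% and 14.3%, on 3 to 7 genes each with a shared region. None of 39 Hox genes and none of 50 developmental regulators, 2 lists typical of Polycomb targets, overlapped a member. Only 5 and 18 of them (12.8% and 36.0%) had any shared region. At the 8.04% background, a count of none from so few genes says little about these lists. Of 14 genes for Polycomb repressive complex 2 and H3K27 demethylases, 1 overlapped a member, Kdm6b.

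**Figure D5:**
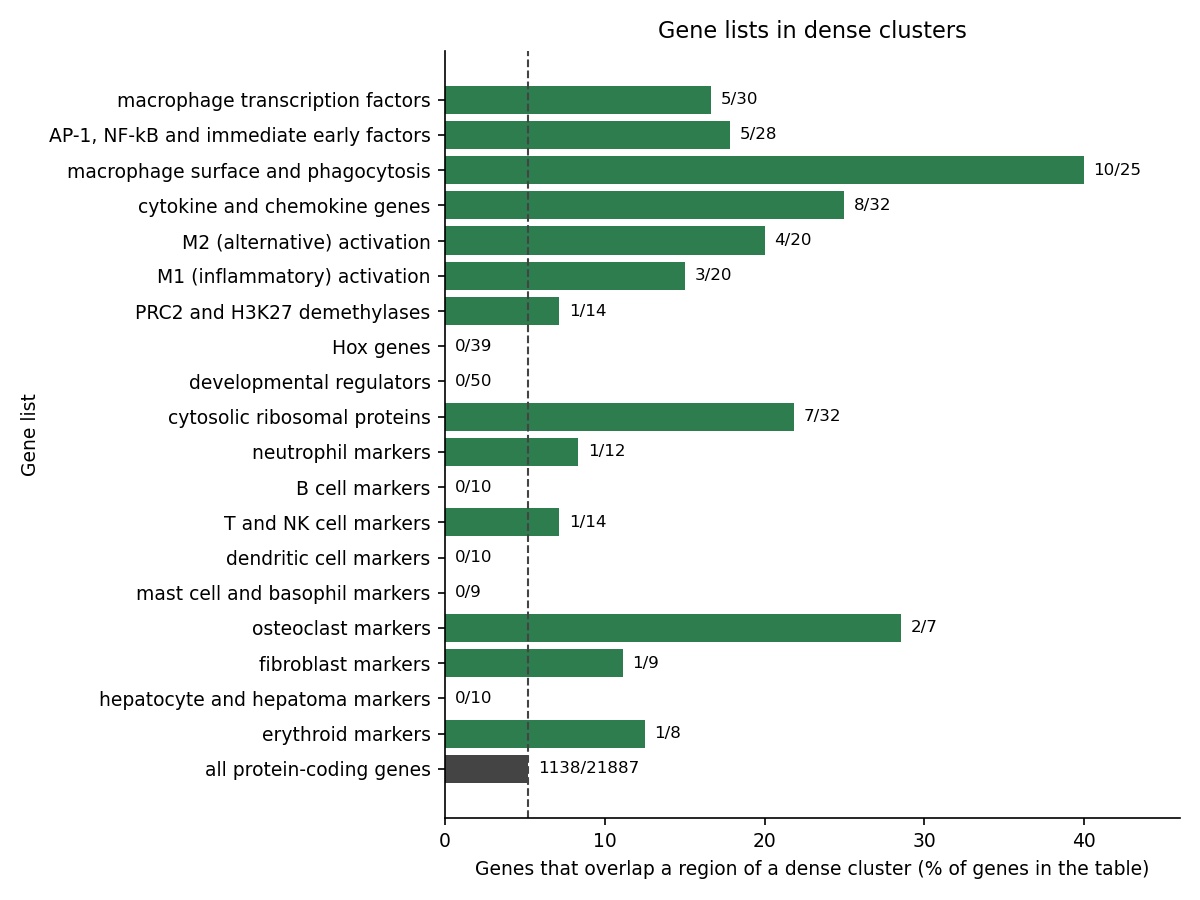
Share of the genes of each list shown that overlap a member region, in percent (horizontal axis), with the number of genes beside each bar and the share of all protein-coding genes as the dark bar and dashed line. The surface and phagocytosis list reaches 40%, 6 lists are at 0, and all protein-coding genes are at 5.2%.

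The 8 lists of macrophage function, with 208 genes, touched 42 dense clusters through 47 genes. Of these clusters 8 were wider in KO, 8 were wider in WT and 26 overlapped, with a median log2 ratio of -0.0036. Over all dense clusters the shares were 18.5% and 14.5%, and 8 of 42 is 19.0% in each direction. Within the alternative activation list, the Pdcd1lg2, Tgm2, Kdm6b and Clec10a clusters were not tested for direction as a set. The Kdm6b cluster covered 6362 and 7601 bp in WT and 6596 and 6619 bp in KO, and the cluster of 14 regions that holds Clec10a covered 5162 and 5710 bp in WT and 5662 and 6406 bp in KO. Both overlapped between genotypes. Apoe, for a lipid carrier secreted by macrophages, had a cluster of 9 regions with 4686 and 5199 bp in WT and 4505 and 4515 bp in KO, where WT was higher. Rela, for an NF-kB subunit, lay in the cluster of 8 regions led by Sipa1, with 4306 and 4392 bp in WT and 5214 and 4883 bp in KO, where KO was higher.

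Markers were checked against the labelled cell type. All 10 macrophage markers had a peak at a gene end in all 4 libraries, and 7 of them overlapped a member region, while Irf8, Adgre1 and Mertk did not. Of other cell types, genes for B cells, dendritic cells, mast cells and hepatocytes overlapped no member, although 4 of 10, 7 of 10, 3 of 9 and 5 of 10 of them had a shared region, and those for neutrophils, T and NK cells, fibroblasts and erythroid cells gave 1 gene each: Ltf, Cd4, Pdgfrb and Klf1. Of these lists 4 of 12, 7 of 14, 4 of 9 and 3 of 8 genes had a shared region, against 64.7% of all protein-coding genes. Among genes with a shared region the background was 8.04%. The absence of B cell, dendritic cell, mast cell and hepatocyte genes from the members therefore says little. Pdgfrb is the neighbour of Csf1r and Klf1 of Junb, in the same clusters. Osteoclast genes, which macrophage-lineage cells can express, gave 2 of 7, Acp5 and Ctsk. Peaks per library numbered 67055 to 72887 and covered 26.7 to 29.9 Mb. Read depth is unknown because the lists hold no counts, and the number of calls can change with depth.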

How the data were processed

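ATAC-seq was measured in 4 libraries of bone marrow-derived macrophages, 2 WT and 2 KO, grouped by their titles. Per the submitters' processing notes, fastp, Bowtie2 and MACS2 were used with mm10. Their versions, the read filters and any shift for the transposase were not given in the sources used here. Every library has its own deposited list of broad peaks, with no pooling of replicates. By the layout of the deposited lists, each peak has a score, a fold enrichment and −log10 values of its p-value and q-value. The fold is the authors' value and served only for ranks and filters within 1 list. The score and the −log10 columns of the authors were not used. No counts were given, so depth is unknown and no interval was computed.

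Covered bases of each library in each union region were counted with Python 3.11.15, numpy 2.4.6, pandas 2.3.3 and scipy 1.17.1 and drawn with matplotlib 3.10.9, and the procedure was tested on simulated data. Regions were joined to the RefSeq tables of GRCm38.p6 by coordinates, and all 432 list genes matched by symbol. The promoter table was used without chromosome 18. The counts of 2 gene lists are not reported here. Tests were exact permutations over libraries. Genes named were lead genes of the 20 largest clusters, of the 6 clusters and 5 regions with the largest and the smallest KO/WT ratio among those whose genotypes did not overlap, list genes, and Ezh2. Others, such as gene-free clusters, clusters of extreme fold and H2-DMa, were chosen after their values were seen. The members and lists were chosen with earlier results of these data known. Same-numbered replicates deviated together with a correlation of 0.02 over members, so the numbers were not taken to pair the libraries. Total covered sequence was higher in replicate 2 of both genotypes, and a batch shared by number was not tested. Alternatives changed the stitching gap, the regions per cluster, the call rule, the peak filters, the scaling, the gene assignment and the libraries used.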

Additional observations from a re-analysis of the deposited data

How the results depend on the processing

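The number of dense clusters followed the rule closely, as its construction implies: 14 at gaps of 5 kb, 1558 at 25 kb, 1150 with 6 or more regions, 109 with 12 or more, 174 where a call needed 50% of a region, 251 without peaks under 150 bp, and 123 and 4 without the weakest 25% and 50% of peaks. In that order, macrophage transcription factors in clusters numbered 0, 15, 9, 1, 1, 3, 1 and 0. Clusters wider in KO were 28.6% at 5 kb and 0% without the weakest 50%, where WT wider reached 25% of clusters and 9.38% of regions, on 4 clusters. KO-only and WT-only shares in spans were 0.943% and 1.03% at 25 kb and 0.948% each under the 50% call. WT-only was 0% at 5 kb, and without the weakest 50% KO-only was 0% and WT-only 2.94%. The cause of these shifts was not tested. Deviations of single member regions did not follow the replicate numbers (correlation 0.02), but library totals did. All peaks covered 27.7 Mb in WT and 26.7 Mb in KO replicate 1, against 29.8 and 29.9 Mb in replicate 2. Whether the numbers mark a shared batch was not tested. With the replicate block, which asks for less than full separation, 27.4% of regions were wider in KO and 23.7% in WT, and 28.9% and 23.2% of clusters were wider in KO and WT. Leaving out 1 library eases the rule by construction. Regions wider in KO then ran from 31.5% to 38.8% and in WT from 27.1% to 35.3%. Clusters wider in KO ran from 28.7% to 47.2% and in WT from 20.5% to 44.0%. KO-only shares ran from 1.86% to 2.53% and WT-only from 1.54% to 2.66%. Of these, only the cluster shares with 1 library left out have a share over all features, given above. The other shares under changed settings have none, so they do not set members apart from all features. The covered ratio ran from -0.0294 to 0.0568 (log2), reversed at -0.0075 without WT replicate 1 and at -0.0294 without KO replicate 2. The lower fold percentile of members kept its sign under all 14 alternatives run, from -41.8 points with gaps of 5 kb to -4.29 without the weakest 25% of peaks. Added after seeing the data were fits without Speer clusters, without promoter regions and without the 6 clusters of lowest fold. None of them moved a result it was run on past these limits. The fit without Speer clusters kept 468 clusters. The fit without promoter regions was run for the fold percentile alone. The fold percentile was not run without the 6 clusters of lowest fold. Depth and the peak threshold limit every count.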

Other observations

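The dense clusters also held microRNA genes. Of 1005 hairpins in the RefSeq table of GRCm38.p6, 41 lay in cluster spans and 5 lay under a member region: Mir6546 in the Fcgr3 cluster, Mir7011 in the Sema4a cluster, Mir212 in the Smg6 cluster, Mir6939 in the Akt1 cluster and Mir5130 in the Kctd12 cluster. Mature sequences of the first 3 and of Mir5130 follow, with the seed (bases 2 to 8) in capitals, because their regions either separated the genotypes or belong to a microRNA known from neurons and immune cells.
mmu-miR-212-3p: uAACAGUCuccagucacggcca
mmu-miR-212-5p: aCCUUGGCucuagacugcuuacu
mmu-miR-6546-3p: gAGCGAAGcccaagcgccaga
mmu-miR-6546-5p: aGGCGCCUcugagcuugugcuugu
mmu-miR-7011-3p: uCUGCUUCccuccuccucuag
mmu-miR-7011-5p: aGGAGGAUgggagagggaggugu
mmu-miR-5130: cUGGAGCGcgcgggcgaggcaggc

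None of these 7 sequences shares its seed with another. The region over Mir6546 covered 1109 and 1092 bp in WT and 1354 and 1141 bp in KO. The region over Mir5130 covered 986 and 1008 bp in WT and 1020 and 1507 bp in KO. Both had higher KO values. Over Mir7011 the values were 610 and 329 bp in WT and 183 and 239 bp in KO, with WT higher. Over Mir212 they were 617 and 487 bp in WT and 485 and 609 bp in KO, and the genotypes overlapped. Accessibility at a hairpin does not measure the microRNA.

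Genes of the Cd300 family, immunoglobulin-like receptors of myeloid cells, lay in clusters led by Cd300ld4 and Cd300lb. The Cd300ld4 cluster, of 15 regions, touched 7 of these genes and covered 5979 and 5383 bp in WT and 6386 and 6262 bp in KO, where KO was higher. The Cd300lb cluster, of 13 regions, also touched Cd300a and covered 6669 and 6562 bp in WT and 6599 and 6430 bp in KO, which overlapped. A cluster of 15 regions led by Gm13276 touched 14 genes, among them Ifnz and a row of predicted genes, and 14 of its 15 regions overlapped a promoter window. It covered 10005 and 10199 bp in WT and 9567 and 10386 bp in KO, which overlapped. Its members made up 23.2% of its span. Reads that align to several of these genes were not examined, so the promoter count and the covered values are uncertain if the genes are alike.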
